A study of Mus musculus with 36 samples.

Results

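The mouse mitochondrial genome was represented in the count table by 37 of 54347 genes, chosen by their place on the mitochondrial chromosome (chrM, symbols beginning with mt-) and not by any measured value. They comprised 13 genes for mRNAs, 2 for rRNAs and 22 for tRNAs. Their RNA was measured in primary cells of mice labelled C57Bl/6 (the hepatocytes, by the methods, of C57BL/6NHsd mice, a difference in substrain that goes with the cell type), namely adipocytes grown from the stromal vascular fraction of inguinal fat, macrophages grown from bone marrow, skeletal myotubes grown from myoblasts and hepatocytes. Cells of each type were exposed for 6 h to PBS as control, to βOHB (the sodium salt of (R)-(-)-3-hydroxybutyric acid) or to butyrate, both at 5 mM, with 3 libraries in each of the 12 groups and 36 libraries in all. The fat of 3-4 male mice was pooled for the adipocytes, and the treatment medium was DMEM with serum for adipocytes and macrophages, differentiation medium for myotubes and Williams E medium for hepatocytes. Between cell types, isolation and, except for adipocytes against macrophages, medium cannot be told apart from the cell type. The labels do not say whether the 3 libraries of a group came from separate animals or cultures, so the p-values below measure the spread between these libraries. The libraries held 18366289 to 23221473 estimated counts. The defining markers of each labelled cell type were present, since the 7 adipocyte, 10 macrophage, 8 myotube and 8 hepatocyte markers all exceeded a mean of 1 CPM (counts scaled to the library total) in the control libraries of their own cell type. The adipocyte libraries also held 5920 to 9250 CPM of the 6 fibroblast markers, the macrophage libraries 1150 to 1760, the myotube libraries 1130 to 1940 and the hepatocyte libraries 14.7 to 21.1.

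Mitochondrial DNA is a small circle that is transcribed from both strands by the single-subunit polymerase Polrmt, with the help of Tfam and Tfb2m. The long transcripts are cut, largely at the tRNAs that lie between the other genes, into the mRNAs of core subunits of the respiratory chain and ATP synthase, the rRNAs of the mitochondrial ribosome and the tRNAs that decode the mRNAs. Genes of one strand therefore start from shared transcripts, and their unequal levels arise largely afterwards, through termination and RNA stability. βOHB is the main circulating ketone body, which the liver releases in fasting, whereas butyrate, which lacks its hydroxyl group, is a short-chain fatty acid from gut fermentation that inhibits histone deacetylases. Mitochondrial DNA is packaged by Tfam rather than by histones.

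The sequences of the mitochondrial mRNAs matter here because 7 pseudogenes on chromosome 1 repeat them almost letter for letter. The copies lie side by side at chr1:24611535-24616197 on the minus strand (GRCm38), and reads from a mitochondrial mRNA can be assigned to either place. In 5 of the 7 the aligned bases were identical to the mitochondrial gene, as in Gm28437, the copy of mt-Co3. The first 60 bases of mt-Co3 (chrM:8607-9390, plus strand) are given because the copy holds the same letters.

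mt-Co3 and Gm28437: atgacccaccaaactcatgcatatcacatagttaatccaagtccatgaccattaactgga

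The other 2 copies differed from their gene by 1 base within the aligned stretch. Capitals mark that base in mt-Co1 (chrM:5328-6872, plus strand, bases 1051 to 1081 of the gene) and its partial copy Gm29216 (chr1:24615706-24616197, bases 1 to 28), and in mt-Nd3 (chrM:9459-9806, plus strand) and its copy Gm28438 (chr1:24612775-24613119). The substitutions are A1066T and T3C, with the mitochondrial base first and positions counted from the first base of the mitochondrial gene. The aligned stretch of the first pair began at base 1063 of mt-Co1 and base 10 of Gm29216, and the letters before it are not shared.

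mt-Co1: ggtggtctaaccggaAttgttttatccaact
Gm29216: ggattggcaggaTttgttttatccaact
mt-Nd3: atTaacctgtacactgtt
Gm28438: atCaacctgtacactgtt

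Mitochondrial genes also overlap each other. mt-Atp8 (chrM:7766-7969, plus strand) ends 43 bases inside mt-Atp6 (chrM:7927-8607, plus strand), and the shared bases are in capitals in the last 63 bases of mt-Atp8.

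mt-Atp8: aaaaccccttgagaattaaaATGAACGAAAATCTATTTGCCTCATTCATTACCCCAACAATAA

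mt-Nd4l and mt-Nd4 shared 7 bases of the same strand, and mt-Nd5 and mt-Nd6 shared 14 bases of opposite strands. Whether the libraries kept the strand is not given in the sources used here, so reads over those 14 bases, or from the antisense side of either gene, cannot be assigned to one of them with certainty.

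The estimated counts were split between the mitochondrial genes and their copies in a manner that varied from gene to gene and from library to library. Of the counts of each pair, the copy Gm28438 held 87.0 to 99.2% for mt-Nd3 (median 94.9% over the 36 libraries), Gm10222 held 86.9 to 98.2% for mt-Nd4l (median 93.1%) and Gm28437 held 63.0 to 83.9% for mt-Co3 (median 75.9%). For mt-Atp6 the copy Gm10925 held 33.2 to 64.7%, for mt-Co2 the copy Gm28661 held 5.21 to 38.3%, and for mt-Co1 the copy Gm29216 held 0.0122 to 7.01%. The copy of the first part of mt-Nd4, Gm28439, had no count in any library. Thus for mt-Nd3, mt-Nd4l and mt-Co3 the row that bears the mitochondrial name held the smaller part of the pair in each of the 36 libraries.

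The split also differed by cell type and by treatment. Gm29216 held 20060 to 42360 counts in the adipocyte libraries and 5937 to 20000 in the hepatocyte libraries, against 38.2 to 759.9 in the macrophage and 90.3 to 3446 in the myotube libraries. The highest of the myotube values belonged to 1 control library, and with it Gm29216 was called lower in myotubes both under βOHB (log2 fold change -3.32, SE 0.87, adjusted p = 0.0288, edgeR) and under butyrate (-1.90, SE 0.79, adjusted p = 0.0351). In hepatocytes Gm10925 held 33.2 to 62.2% of its pair with mt-Atp6. Counts were therefore read both as deposited and with each copy added to its gene, and results that depend on this choice are given in both forms. The 7 mRNAs without counts in a copy (mt-Nd1, mt-Nd2, mt-Nd4, mt-Nd5, mt-Nd6, mt-Cytb and mt-Atp8) and the rRNAs keep their own counts in both forms.

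**Figure D1:**
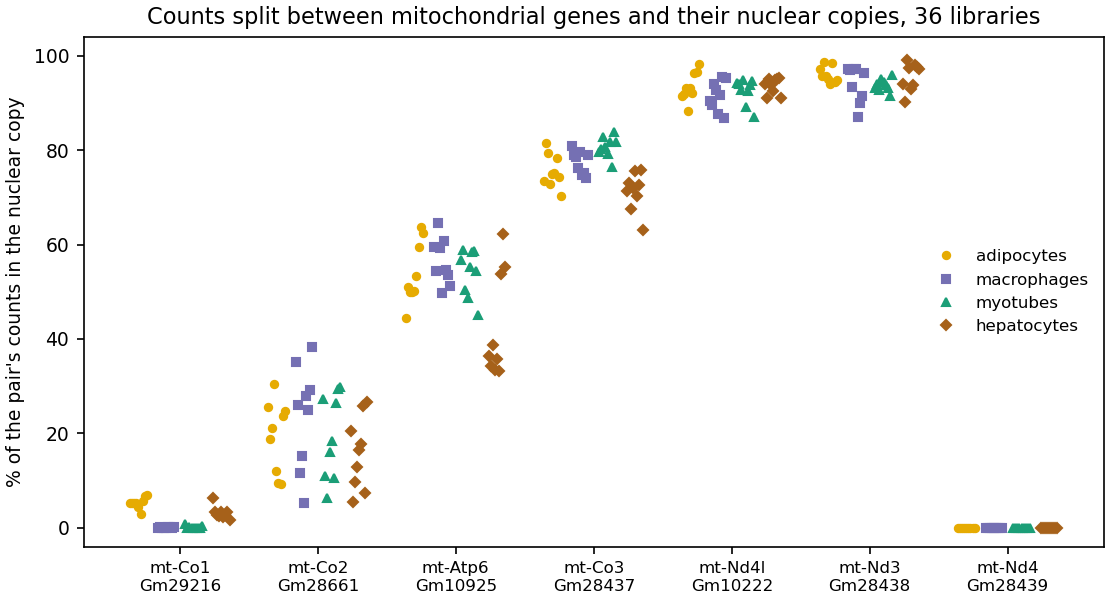
Percentage of each pair's estimated counts that was assigned to the nuclear copy (y axis) in each of the 36 libraries, by pair and cell type. The copies of mt-Nd3 and mt-Nd4l took over 86% of the counts in every library, and Gm28439, the copy of mt-Nd4, took none.

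The tRNAs were almost absent from the counts. Of the 22 tRNA genes, 16 had no count in any library, and the other 6 held 14 counts in all out of 767890116, with at most 2 in a library. Their annotated lengths were 59 to 75 bases, shorter than the 150-base reads of these libraries, and the shortest, mt-Ts2 (chrM:11613-11671, plus strand, a serine tRNA), is shown whole.

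mt-Ts2: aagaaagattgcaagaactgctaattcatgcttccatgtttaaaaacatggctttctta

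None of the tRNAs passed the filter on low counts (CPM above 1 in at least 6 libraries), so 15 of the 37 genes, the 13 mRNAs and 2 rRNAs, were tested, among 15340 genes in all. In these libraries the tRNAs were not measurable, and nothing about their levels follows from these counts.

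The 13 mRNAs together held 3.38 to 8.71% of the counts of a library as deposited (median 5.11%) and 3.73 to 9.99% with the copies added (median 5.94%). In control libraries the share with copies was 7.72, 8.63 and 8.20% in adipocytes, 7.51, 8.02 and 8.98% in myotubes, 4.38, 4.21 and 4.27% in macrophages and 4.31, 4.06 and 3.73% in hepatocytes. Adipocytes and myotubes lay above macrophages and hepatocytes without overlap, while the control libraries within each of these pairs of cell types overlapped. In bulk RNA, a lower share of mitochondrial transcripts per cell and a different mix of cells cannot be told apart.

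Under butyrate the share of the mRNAs overlapped the controls in adipocytes (7.72, 7.94 and 6.90%) and myotubes (8.80, 8.62 and 7.29%). In hepatocytes the share was 4.85, 4.97 and 4.84% under butyrate, above each of the 3 control libraries, and in macrophages it was 4.91, 4.42 and 4.82%, again above the controls. The macrophage difference depended on the scaling. As deposited, the log2 ratio of the share under butyrate to that in controls was 0.13 by library totals, a scale on which the median of all tested genes lay at 0.20, and -0.098 relative to the TMM-scaled library size. In hepatocytes the same ratio was 0.27 by library totals, with a median of all genes of 0.013, and 0.20 by the TMM-scaled size. The overlap in adipocytes depended on the scaling too. As deposited and relative to the TMM-scaled size, the adipocyte share was 6.57, 7.24 and 6.84% in controls and 6.18, 6.18 and 5.35% under butyrate, without overlap, and the log2 ratio was -0.22 against -0.13 by library totals. In myotubes the groups overlapped on both scales, with a ratio of -0.14 by the TMM-scaled size and -0.0053 by library totals. The medians of all genes by library totals were 0.073 in adipocytes and 0.13 in myotubes.

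Under βOHB the share with copies was 8.18, 9.99 and 9.94% in adipocytes, where the first library lay among the controls and the other 2 above them. It was 4.54, 4.63 and 4.44% in macrophages, 8.77, 8.27 and 8.43% in myotubes and 4.54, 4.02 and 4.56% in hepatocytes. Only in macrophages did the βOHB libraries lie apart from the controls, by 1.06 times. The share of the 2 rRNAs under βOHB was 0.897, 0.951 and 0.892% in adipocytes against 0.601, 0.795 and 0.780% in controls, and 0.104, 0.103 and 0.105% in macrophages against 0.0926, 0.0851 and 0.0888%, above the controls without overlap in both, while the groups overlapped in myotubes and hepatocytes. No test was made on the summed shares.

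**Figure D2:**
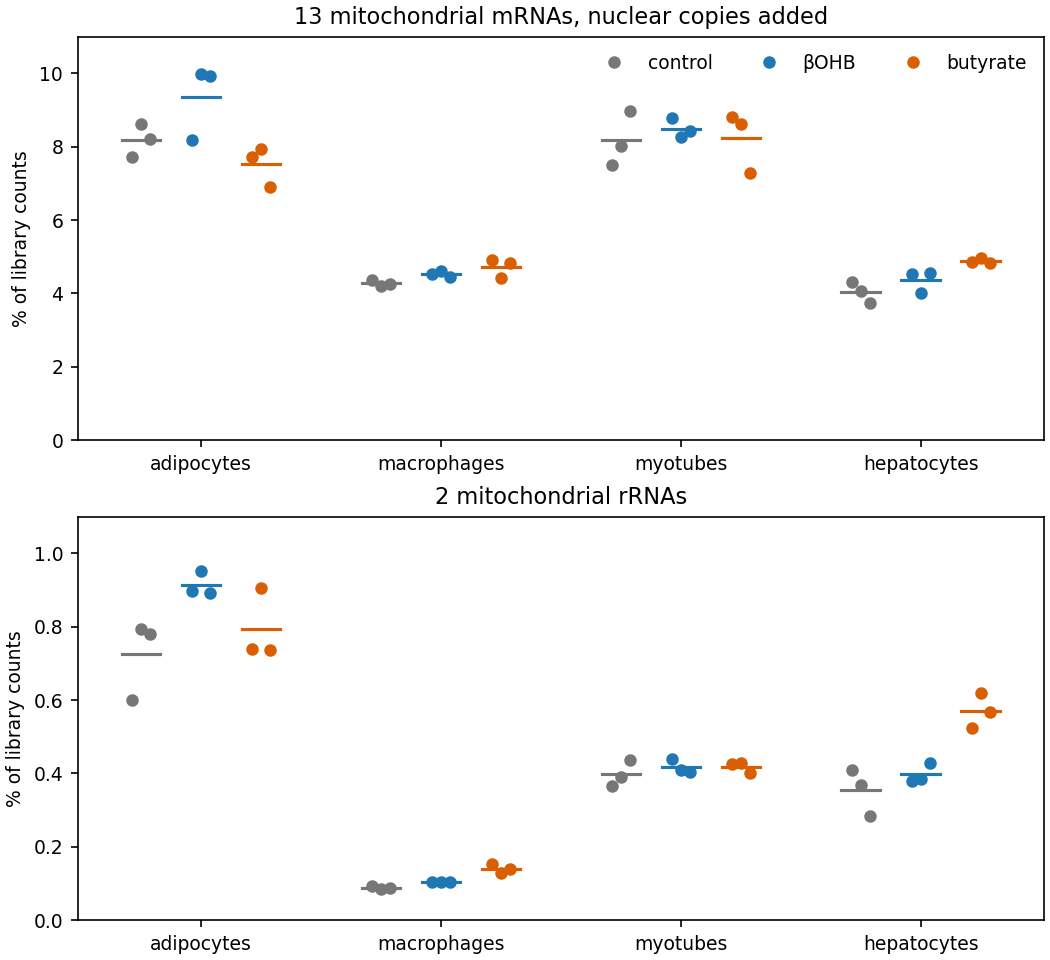
Share of library counts (y axes, %) in the 13 mitochondrial mRNAs with their nuclear copies (upper panel) and in the 2 rRNAs (lower panel), for each library (points) with the group mean (lines). Adipocytes and myotubes held the higher mRNA shares, and the rRNA share lay above the controls without overlap under butyrate in macrophages and hepatocytes and under βOHB in adipocytes and macrophages.

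Per kilobase of gene, the mRNAs of 1 genome differed widely. With the copies added, mt-Co1, the catalytic subunit of cytochrome c oxidase (complex IV), was the most abundant mRNA per kb in the controls of adipocytes, macrophages and hepatocytes, with 16630, 8659 and 10380 CPM per kb on average, followed by mt-Co2, which carries the copper site that receives electrons from cytochrome c, with 13960, 8342 and 4712. In myotubes the means stood in the opposite order, with 13980 for mt-Co2 and 13000 for mt-Co1. The ranges of both genes over the control libraries overlapped in myotubes and in macrophages. The lowest mRNA per kb was mt-Nd3, a small membrane subunit of NADH dehydrogenase (complex I), with 1115 CPM per kb in adipocytes, 684 in macrophages, 1534 in myotubes and 376 in hepatocytes. The annotated lengths of 204 to 1824 bases include genes close to the length of a fragment, so the values per kb of mt-Atp8, mt-Nd4l and mt-Nd3 are the least certain. The length rule matters for other genes too. As deposited, each mRNA's share of the per-kb total was recomputed with lengths cut to the possible read starts and without lengths. Over genes and groups, 259 such shares moved by at least 1 SD and 53 by less. The percentages by gene below therefore hold for the annotated lengths.

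The balance among the mRNAs differed between the cell types. Of the per-kb total of the 13 mRNAs, mt-Co1 took 27.5% ± 0.36 (SD, n = 3) in hepatocyte controls, 20.2% ± 0.83 in adipocytes, 19.7% ± 0.24 in macrophages and 15.2% ± 0.34 in myotubes, where adipocytes and macrophages lay within 1 SD of each other. mt-Cytb, the cytochrome b of complex III, ran the other way, with 3.83% ± 0.038 in hepatocytes, 5.85% ± 0.015 in adipocytes, 7.62% ± 0.12 in macrophages and 8.61% ± 0.20 in myotubes. mt-Nd2, a complex I subunit, took 3.58% ± 0.047 in macrophages and 6.53% ± 0.087 to 7.81% ± 0.22 in the other cell types.

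**Figure D3:**
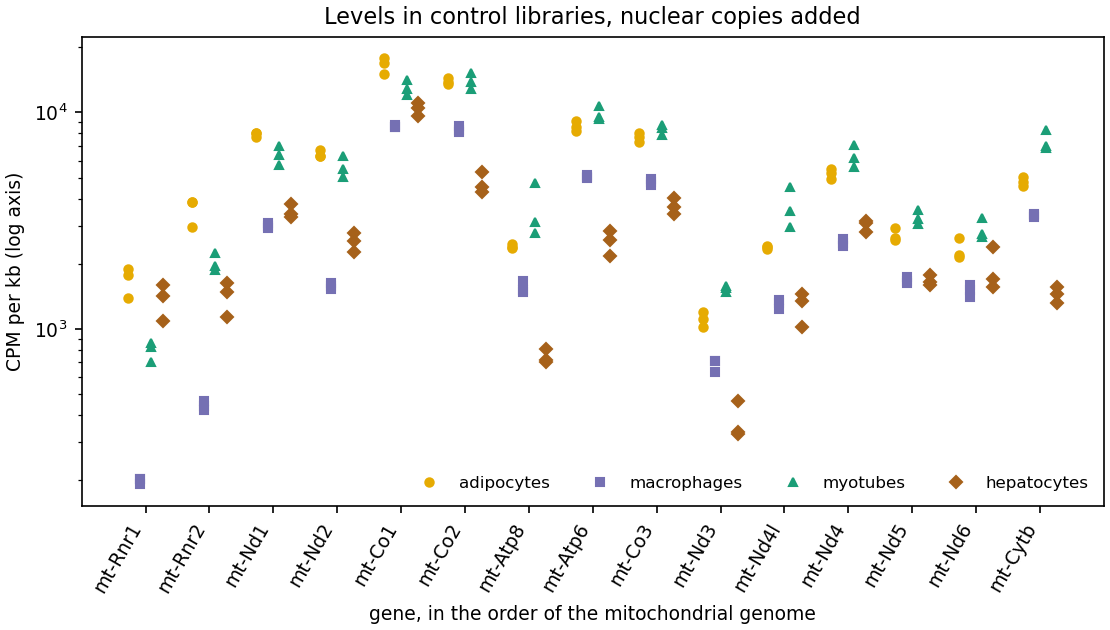
Levels of the 2 rRNAs and 13 mRNAs in the control libraries (y axis, CPM per kb of gene, log scale), in genome order, by cell type, with 1 point for each library and the nuclear copies added. The macrophage rRNAs and the hepatocyte mt-Atp8 and mt-Cytb lay furthest below the other cell types.

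These differences between control cell types were tested gene by gene with edgeR on TMM-scaled counts. Adipocytes exceeded macrophages for 13 of the 15 genes as deposited (77.5% of all tested genes were called in that comparison) and for 15 with the copies added, most of all for mt-Rnr1 (log2 difference 3.09, SE 0.15, adjusted p = 2.49e-18) and mt-Rnr2 (3.02, SE 0.13, adjusted p = 1.67e-19) and among the mRNAs for mt-Nd2 (2.03, SE 0.12) and mt-Nd1 (1.41, SE 0.11). The mRNA differences ranged down to 0.53 for mt-Cytb. Myotubes exceeded macrophages for 15 of 15 genes in both forms (82.2% of all genes were called), by 0.58 for mt-Co1 up to 2.20 for mt-Rnr2 with the copies added. Leaving out 1 control library gave 14 to 15 called genes as deposited and 15 with the copies added.

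Between macrophages and hepatocytes the genes split. Of the 13 mRNAs with the copies added, 5 were higher in macrophages, led by mt-Cytb (log2 difference 0.97, SE 0.11, adjusted p = 3.48e-09) and mt-Atp8 (0.82, SE 0.16), and 6 were higher in hepatocytes, led by mt-Nd2 (macrophage minus hepatocyte -0.93, SE 0.11, adjusted p = 9.99e-09). As deposited, 2 mRNAs were higher in macrophages and 7 in hepatocytes, and 82.1% of all genes were called. mt-Co3, a complex IV subunit, was called lower in macrophages as deposited (-0.39) and was 0.12 with the copies added (adjusted p = 0.266). With library totals alone, a scale on which the median of all genes lay at 0.26, 4 of the 7 calls higher in hepatocytes were lost as deposited, namely mt-Nd1 (-0.21, adjusted p = 0.066, edgeR), mt-Co1 (-0.20, adjusted p = 0.0773), mt-Co3 (-0.14, adjusted p = 0.395) and mt-Nd5 (0.005, adjusted p = 0.976). The mt-Nd5 call (-0.24) was also lost without any 1 of the control libraries other than the first of the hepatocytes (-0.27 to -0.20), and that of mt-Co3 without the first macrophage or the first hepatocyte control (-0.34 in both).

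Between myotubes and hepatocytes, where 86.6% of all genes were called, 11 of 13 mRNAs as deposited and 12 with the copies added were higher in myotubes. Leaving out 1 control library gave 10 to 11 and 11 to 12 higher mRNAs, and 0 to 1 higher rRNA in both forms. The difference with the copies added was 2.10 (SE 0.12, adjusted p = 7.35e-17) for mt-Cytb, 2.01 (SE 0.16) for mt-Atp8 and 0.074 (SE 0.11, adjusted p = 0.537) for mt-Co1. Between adipocytes and myotubes the 13 mRNAs differed by -1.69 to 0.32 as deposited, with 6 lower and 2 higher in adipocytes, and by -0.62 to 0.36 with the copies added, with 7 lower and 2 higher. In that comparison, where 78.2% of all genes were called, the smaller differences rested on single libraries in both forms. With the copies added, leaving out 1 control library gave 3 to 7 mRNAs lower and 1 to 3 higher. Without the third myotube control mt-Atp8, mt-Nd4, mt-Nd5 and mt-Nd6 were then no longer called, and without the first or the third adipocyte control the same held for mt-Nd4, mt-Nd5 and mt-Nd6. As deposited, without the third myotube control the calls of mt-Atp8 (-0.26), mt-Nd4 (-0.14), mt-Nd5 (-0.18) and mt-Nd6 (-0.19) were lost, without the first or the third adipocyte control those of mt-Nd4, mt-Nd5 and mt-Nd6, without the second adipocyte control that of mt-Co1 (0.24), without the first myotube control those of mt-Nd1 (0.23) and mt-Co1 (0.21), and without the second those of mt-Co1 (0.29) and mt-Nd4 (-0.27).

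The rRNAs of the mitochondrial ribosome, mt-Rnr1 of the small and mt-Rnr2 of the large subunit, held 0.0851 to 0.951% of library counts, and these values depend on how the libraries treated rRNA, which is not given in the sources used here. In controls mt-Rnr1 stood at 1329, 1813 and 1701 CPM in adipocytes, 193, 183 and 194 in macrophages, 675, 792 and 822 in myotubes and 1519.5, 1363 and 1035 in hepatocytes. Adipocytes and hepatocytes overlapped, and macrophages lay far below. mt-Rnr2 stood at 4685, 6134 and 6102 CPM in adipocytes, 733, 668 and 694 in macrophages, 2970, 3100 and 3557 in myotubes and 2583, 2333 and 1798.5 in hepatocytes. The log2 difference of adipocytes minus hepatocytes was 1.09 for mt-Rnr2 (SE 0.12, adjusted p = 1.5e-09, edgeR with the copies added) and 0.064 for mt-Rnr1 (SE 0.14, adjusted p = 0.676), in a comparison where 12 of 15 genes as deposited, 13 with the copies added and 81.1% of all genes were called.

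βOHB called no mitochondrial gene in any cell type. With edgeR 0 of 15 genes passed an adjusted p of 0.05 in each of the 4 comparisons with control, whether or not the copies were added, and limma-voom and DESeq2 also called 0. Of all tested genes, 0.00652% were called in adipocytes, 0% in macrophages, 2.91% in myotubes (2.56% as lowered) and 0.00652% in hepatocytes. At an unadjusted p below 0.05 there were 8 mRNAs and 2 rRNAs in adipocytes as deposited, 1 mRNA in hepatocytes and none in macrophages or myotubes. With the copies added these were 6 mRNAs and 2 rRNAs in adipocytes, 2 mRNAs in hepatocytes and again none in the others. The share of all tested genes at that level was not counted, so whether these numbers exceed it is not known.

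The adipocyte values were the largest of these. The 13 mRNAs with the copies added ranged from 0.10 to 0.36 on the log2 scale with a median of 0.24, where the median of all genes was 0.0018, and mt-Rnr2 was 0.36 (SE 0.12, adjusted p = 0.55). For mt-Nd2 the libraries held 6579, 8551 and 8641 CPM under βOHB against 6540, 6929 and 6525 in controls, so that 1 of the 3 treated libraries lay within the control range. Without a filter on low counts, 6 of the 15 genes were called in this comparison as deposited, a setting for which the share of all genes is not given here. The mRNA medians with the copies added were 0.094 in macrophages, 0.11 in myotubes and 0.040 in hepatocytes. The 95% intervals of the 15 genes with the copies added reached from -0.20 to 0.68 in adipocytes, from -0.30 to 0.56 in macrophages, from -0.33 to 0.43 in myotubes and from -0.30 to 0.66 in hepatocytes, so the absence of calls does not show that these RNAs did not differ.

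Under butyrate, 5 of the 13 mRNAs fell in adipocytes as deposited and 7 with the copies added, while mt-Rnr1 rose. Leaving out 1 library gave 4 to 5 lowered mRNAs as deposited and 4 to 7 with the copies added. In the same comparison 61% of all tested genes were called, 30.3% as lowered and 30.7% as raised (30.8% as raised with the copies added), beside 6 of 15 mitochondrial genes called as deposited and 8 with the copies added. Whether these shares differ from those of all genes was not tested. The called mRNAs encode complex I subunits (mt-Nd1, mt-Nd2, mt-Nd4 and mt-Nd4l in both forms and mt-Nd3 with the copies added), the proton-channel subunit of ATP synthase mt-Atp6 in both forms and mt-Co3 with the copies added. The median of the 13 mRNAs was -0.22 as deposited and -0.23 with the copies added, where the median of all genes was 0.

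mt-Nd1, which builds part of the quinone-binding region of complex I, stood at 7403, 7662 and 7670 CPM in adipocyte controls and at 5650, 5550 and 4640 under butyrate. The groups did not overlap, and the log2 fold change was -0.61 (SE 0.11, adjusted p = 2.31e-05, edgeR). mt-Nd2, a proton-pumping subunit, stood at 6540, 6929 and 6525 CPM in controls and at 5053, 5193 and 4406 under butyrate, likewise without overlap (-0.54, SE 0.11, adjusted p = 0.000153). For mt-Nd4 the values were 6777, 7577 and 7239 against 6287, 6352 and 5494 CPM (-0.34, SE 0.12, adjusted p = 0.0118), and this call was lost without the third butyrate library (-0.27, adjusted p = 0.075).

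The short complex I mRNAs depended on the copies for the size of their change. As deposited mt-Nd4l fell from 58.8, 57.9 and 49.4 CPM to 20.4, 18.5 and 8.30 (log2 fold change -1.91, SE 0.39, adjusted p = 0.000102), whereas together with Gm10222 it fell from 695, 714 and 717 to 556, 538 and 472 (-0.53, SE 0.15, adjusted p = 0.00309). mt-Nd3 with Gm28438 fell from 356, 419 and 389 CPM to 266, 340 and 193 (-0.63, SE 0.14, adjusted p = 0.000361), but the row of mt-Nd3 alone held at most 18.7 CPM in these 6 libraries and gave -0.090 (SE 0.60, adjusted p = 0.926). mt-Atp6 gave -0.70 as deposited (adjusted p = 7.24e-05) and -0.27 with its copy (adjusted p = 0.0424). mt-Co3 gave -0.0012 as deposited and -0.23 with its copy (adjusted p = 0.0473).

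The other mRNAs of adipocytes were not called. Of these, with the copies added, mt-Co1 gave -0.043, mt-Co2 -0.10, mt-Cytb -0.14, mt-Nd5 -0.23 (adjusted p = 0.0669), mt-Atp8 -0.22 and mt-Nd6 0.039. mt-Rnr1 rose from 1329, 1813 and 1701 to 2024, 2733 and 2238 CPM (log2 fold change 0.44, SE 0.14, adjusted p = 0.00599), without overlap of the groups, whereas mt-Rnr2 gave -0.097 (SE 0.12, adjusted p = 0.511 with the copies added). The call of mt-Rnr1 was lost without the first control library (0.33, adjusted p = 0.0597) or the second butyrate library (0.32, adjusted p = 0.0654). Among the other genes of these libraries, the 7 adipocyte markers summed to 9120-9830 CPM in controls and 7270-8780 under butyrate, the 10 macrophage markers to 393-472 and 381-418 CPM, the 6 fibroblast markers to 6010-6930 and 5920-7530 CPM and the 6 endothelial markers to 193-223 and 134-159 CPM. The adipocyte and endothelial sums lay below the controls without overlap. The part of any of these in the mitochondrial results was not tested.

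In macrophages butyrate raised both rRNAs and called no mRNA, as deposited and with the copies added alike (2 of 15 genes, where 65% of all tested genes were called, 31.9% as raised). mt-Rnr1 rose from 193, 183 and 194 to 317, 281 and 302 CPM (log2 fold change 0.43, SE 0.14, adjusted p = 0.007) and mt-Rnr2 from 733, 668 and 694 to 1201, 1003 and 1083 CPM (0.43, SE 0.12, adjusted p = 0.00279). The groups did not overlap for either rRNA, and the treated levels remained below those of the controls of the other cell types.

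For the macrophage mRNAs the count of 0 held with edgeR, limma-voom and DESeq2, and 0 had an unadjusted p below 0.05. Other settings called mRNAs as deposited. Without the second butyrate library mt-Nd4l was called lower (-1.06, adjusted p = 0.0211, edgeR), without a filter on low counts mt-Nd3 was called higher and mt-Nd4l lower, and with library totals alone or with the macrophage libraries only mt-Atp6 and mt-Co3 were called higher. The 13 mRNAs with the copies added ranged from -0.20 for mt-Nd6 (SE 0.13, adjusted p = 0.178) to 0.077 for mt-Nd3 (SE 0.14), with a median of -0.079. The macrophage markers summed to 19400-19600 CPM in controls and 14400-15100 under butyrate, the 6 endothelial markers to 133-160 and 103-113 CPM and the 8 myotube markers to 6.13-14.4 and 23.8-78.5 CPM, each without overlap. Their part in the rRNA results was not tested.

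Myotubes had 1 call under butyrate as deposited and 0 with the copies added, where 66.5% of all tested genes were called (33.4% as lowered and 33.1% as raised), and 66.6% with the copies added. The deposited call was mt-Co2, with 6408, 8404 and 9775 CPM in controls and 7220, 6858 and 6032 under butyrate. These groups overlapped (log2 fold change -0.43, SE 0.17, adjusted p = 0.0294), the call was lost without the third control library (-0.26, adjusted p = 0.222), and together with Gm28661 the change was -0.17 (SE 0.11, adjusted p = 0.177). Only 1 mRNA with the copies added had an unadjusted p below 0.05, namely mt-Nd4l (-0.33, SE 0.15, adjusted p = 0.0516), and limma-voom and DESeq2 also called 0 mRNAs.

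The myotube rRNAs gave -0.026 (SE 0.14) for mt-Rnr1 and -0.070 (SE 0.12) for mt-Rnr2. Myotube libraries differed in markers of other cells. The 10 macrophage markers summed to 154-445 CPM in controls, 54.3-147 under βOHB and 22.5-113 under butyrate, the 8 hepatocyte markers to 0.358-1.48, 0.656-26.5 and 38.9-696 CPM and the 7 adipocyte markers to 4.89-5.95, 4.62-5.48 and 13.4-14.3 CPM. The 8 myotube markers summed to 26200-30700, 30000-33400 and 19400-26200 CPM. The part of these lists in the mitochondrial values was not tested.

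In hepatocytes butyrate raised mt-Nd1, mt-Co1 and both rRNAs, with or without the copies. As deposited 6 of 15 genes were called, where 63.5% of all tested genes were called (31% as raised and 32.4% as lowered, or 32.5% with the copies added), and 6 also with the copies added, but not the same 6, since mt-Atp6 was called as deposited and mt-Co2 with the copies. mt-Nd1 rose from 3610, 3249 and 3145 to 4715, 4757 and 5050 CPM without overlap (log2 fold change 0.47, SE 0.11, adjusted p = 0.000544), opposite to its direction in adipocytes. mt-Co1 rose from 15934, 15688 and 14479 to 20779, 21209 and 19653 CPM as deposited (0.35, SE 0.11, adjusted p = 0.00818).

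Both hepatocyte rRNAs rose by similar amounts. mt-Rnr1 went from 1519.5, 1363 and 1035 to 1948, 2329 and 1998 CPM (log2 fold change 0.61, SE 0.14, adjusted p = 0.000263) and mt-Rnr2 from 2583, 2333 and 1798.5 to 3284, 3857 and 3681 CPM (0.62, SE 0.12, adjusted p = 4.85e-05). Neither pair of groups overlapped. mt-Co2 with its copy rose from 3623, 3111 and 2935 to 4498, 4502 and 4609 CPM (0.42, SE 0.11, adjusted p = 0.00107), where the deposited row gave 0.29 (adjusted p = 0.145).

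mt-Nd6 and mt-Atp6 were the least settled of the hepatocyte calls. mt-Nd6, the only mRNA transcribed from the light strand, stood at 1237.5, 881 and 809 CPM in controls and 801, 838 and 838 under butyrate (-0.31, SE 0.13, adjusted p = 0.0395), with overlap of the groups. Without the first control library the change was -0.10 (adjusted p = 0.5), and the call was also lost without any 1 of the butyrate libraries (-0.32 to -0.29) and with RLE scaling, library totals alone, TMM without mitochondrial genes, another filter (filterByExpr), the libraries of hepatocytes only or a replicate block (-0.30 to -0.24, adjusted p of 0.0507 to 0.118, edgeR). mt-Atp6 was called lower as deposited (-0.35, SE 0.14, adjusted p = 0.0292) while its copy Gm10925 was called higher (0.87, SE 0.14, adjusted p = 3.49e-06), and their sum gave 0.22 (SE 0.11, adjusted p = 0.0991). The deposited call of mt-Atp6 was also lost with library totals alone (-0.28, adjusted p = 0.0771), with the libraries of hepatocytes only (-0.28, adjusted p = 0.0504) and without the first or the second control or the second butyrate library (-0.31 to -0.27). Of the marker lists in these libraries, 5 moved without overlap between control and butyrate. The 8 hepatocyte markers summed to 33500-36000 and 41600-43000 CPM, the 7 adipocyte markers to 15.4-17.7 and 53.5-55.7, the 8 myotube markers to 24.6-24.9 and 39.6-44.5, the 6 fibroblast markers to 17.4-21.1 and 14.7-16.9 and the 6 endothelial markers to 57.4-63.5 and 18.3-21.4 CPM. Their part in these results was not tested.

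**Figure D4:**
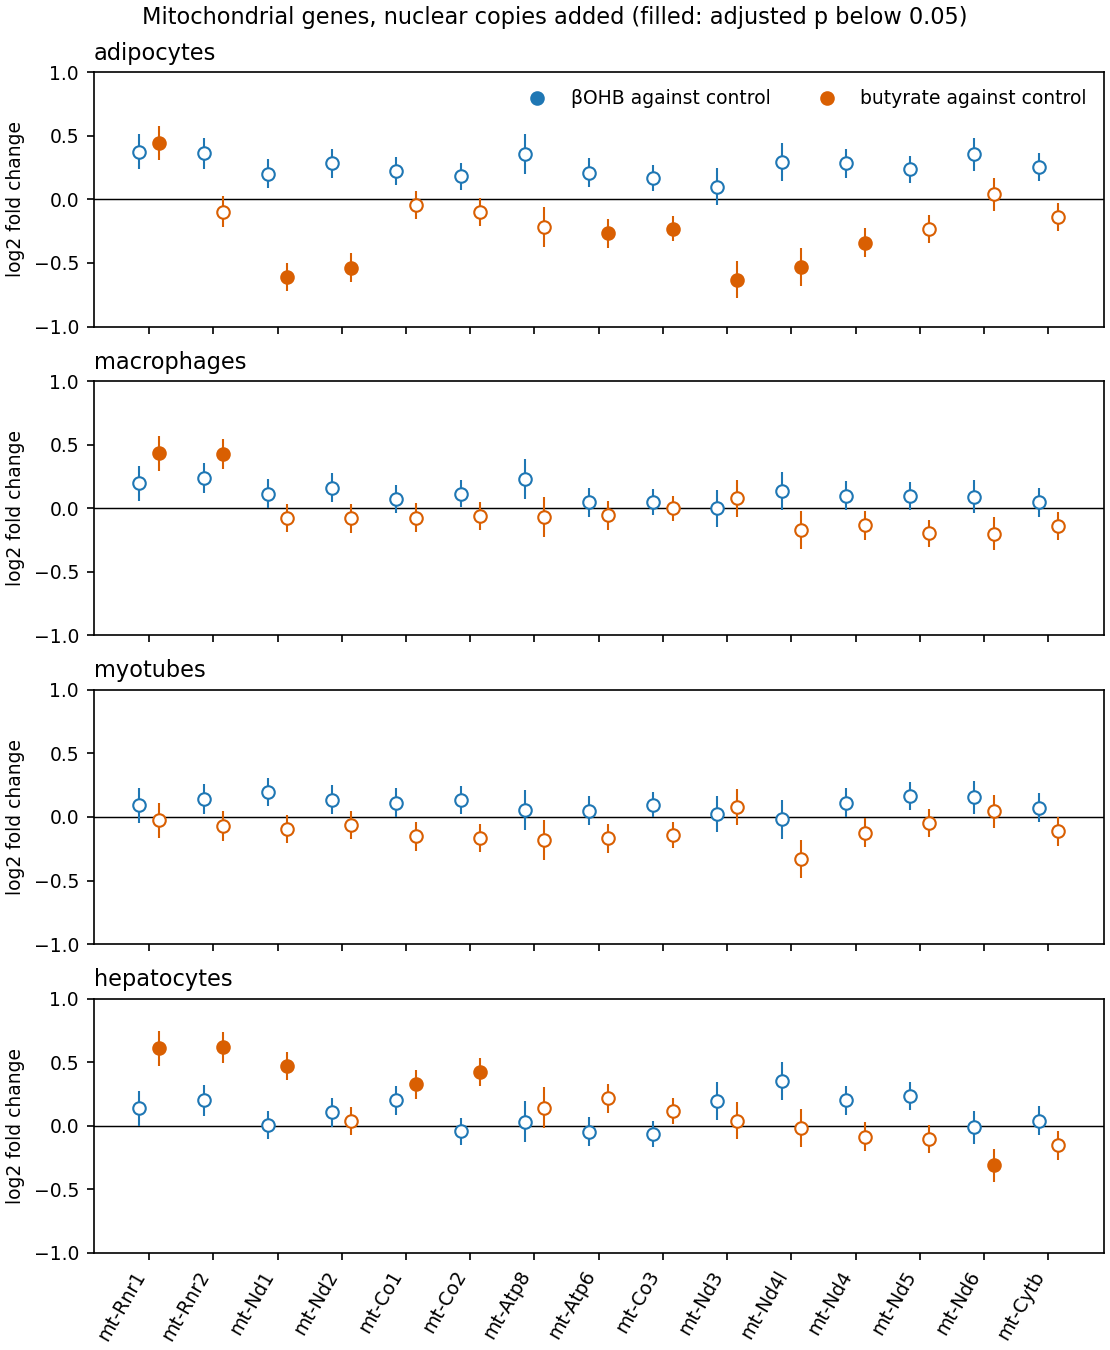
Log2 fold changes against control (points, bars are 1 SE from edgeR) of the 2 rRNAs and 13 mRNAs in genome order with the nuclear copies added, under βOHB and butyrate in the 4 cell types. Filled points had an adjusted p below 0.05, and none of the βOHB points did.

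The direct comparison of the compounds, at the same dose and time, was made for the 15 genes in each of the 4 cell types, with p-values adjusted over all tested genes. It uses the same butyrate libraries as the comparison with control, so the results of both are not independent. In adipocytes 11 of 13 mRNAs and mt-Rnr2 were lower under butyrate than under βOHB as deposited, and 13 of 13 mRNAs and mt-Rnr2 with the copies added (59.5% of all tested genes were called, 29.5% as lower and 30% as higher under butyrate). The largest differences with the copies added were for complex I mRNAs, namely mt-Nd4l (-0.82, SE 0.15, adjusted p = 2.25e-05), mt-Nd2 (-0.82, SE 0.11, adjusted p = 2.7e-07) and mt-Nd1 (-0.81, SE 0.11, adjusted p = 2.32e-07), and the smallest were for mt-Co1 (-0.27, SE 0.11, adjusted p = 0.0416) and mt-Co2 (-0.28, SE 0.11, adjusted p = 0.0259). mt-Rnr1 differed by 0.068 (SE 0.14), with a 95% interval of -0.21 to 0.35. As deposited, between 9 and 13 genes were called when single libraries of these groups were left out. With library totals alone 9 were called, and those of mt-Co1 (-0.18, adjusted p = 0.144, edgeR), mt-Co3 (-0.28, adjusted p = 0.128) and mt-Nd6 (-0.19, adjusted p = 0.204) were lost.

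In hepatocytes the calls went in both directions, but the lower ones rested on single libraries. With the copies added, leaving out 1 library gave 0 to 3 mRNAs lower under butyrate and 2 to 3 higher. The calls with the copies added were mt-Co2 (0.47, SE 0.11), mt-Nd1 (0.46, SE 0.11), mt-Atp6 (0.26, SE 0.11), mt-Rnr1 (0.47, SE 0.14) and mt-Rnr2 (0.42, SE 0.12), higher under butyrate, and mt-Nd4l (-0.37, SE 0.15), mt-Nd5 (-0.33, SE 0.11), mt-Nd6 (-0.30, SE 0.13) and mt-Nd4 (-0.29, SE 0.11), lower. mt-Atp6 was called lower under butyrate as deposited (-0.36, adjusted p = 0.0272) and higher with its copy (adjusted p = 0.0445). As deposited 8 genes were called, where 63.5% of all tested genes were, and the calls of mt-Co2, mt-Atp6, mt-Nd4, mt-Nd5 and mt-Nd6 were lost when 1 of the βOHB or butyrate libraries was left out. With library totals alone mt-Atp6 (-0.28, adjusted p = 0.0761, edgeR), mt-Nd4 (-0.21, adjusted p = 0.0933) and mt-Nd6 (-0.22, adjusted p = 0.135) were not called, and mt-Nd6 was not called with RLE scaling, filterByExpr or TMM without mitochondrial genes either.

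In macrophages 2 mRNAs as deposited and 1 with the copies added differed between the compounds (64.7% of all genes were called), with mt-Nd5, a proton-pumping subunit of complex I, called in both forms (-0.29, SE 0.11, adjusted p = 0.0208 as deposited). This call was lost by library totals alone (-0.066, adjusted p = 0.609) and without the second βOHB (-0.25), the first butyrate (-0.27) or the second butyrate library (-0.23). In myotubes 3 as deposited and 4 with the copies added were lower under butyrate (66% of all genes were called), namely mt-Co2 (-0.30, SE 0.11), mt-Nd1 (-0.29, SE 0.11), mt-Co1 (-0.26, SE 0.11) and mt-Co3 (-0.24, SE 0.10), and by library totals alone none of them was called. As deposited the call of mt-Co1 was also lost without the third butyrate library (-0.15, adjusted p = 0.239, edgeR) and without the first or the third βOHB library (-0.24 and -0.27), and that of mt-Nd1 without the third butyrate library (-0.22, adjusted p = 0.109) and without the first or the second βOHB library (-0.27 and -0.28). With the copies added, the 95% intervals of the 15 genes reached from -0.63 to 0.52 in macrophages and from -0.62 to 0.35 in myotubes, so the compounds are not shown to act alike on the uncalled genes.

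The response to butyrate itself was compared between cell types by testing each cell type's change against the mean change of the other 3. The adipocyte response with the copies added was lower for mt-Nd1 (difference of log2 fold changes -0.71, SE 0.13, adjusted p = 6.73e-05), mt-Nd3 (-0.70, SE 0.17, adjusted p = 0.00154), mt-Nd2 (-0.50, SE 0.13, adjusted p = 0.00334) and mt-Rnr2 (-0.42, SE 0.14, adjusted p = 0.0189). The hepatocyte response was higher for mt-Nd1 (0.73, SE 0.13, adjusted p = 2.32e-05), mt-Co2 (0.53, SE 0.13, adjusted p = 0.000734), mt-Rnr2 (0.53, SE 0.14, adjusted p = 0.00214), mt-Co1 (0.42, SE 0.13, adjusted p = 0.00935) and mt-Atp6 (0.38, SE 0.13, adjusted p = 0.0178). The myotube response was lower for mt-Rnr1 (-0.52, SE 0.16, adjusted p = 0.00833) and mt-Rnr2 (-0.39, SE 0.14, adjusted p = 0.0255), which were raised in macrophages and hepatocytes.

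As deposited, 5, 1, 2 and 4 of the 15 genes differed in this way in adipocytes, macrophages, myotubes and hepatocytes, where 32.9, 39.9, 42 and 46.3% of all tested genes did. In macrophages the only gene was mt-Atp6 (0.55, SE 0.16, adjusted p = 0.00755), and with its copy the difference was 0.017 (SE 0.13, adjusted p = 0.987). The response of the mitochondrial mRNAs to βOHB in myotubes differed from the other cell types for 0 of 15 genes with edgeR, limma-voom and DESeq2, with 0 at an unadjusted p below 0.05, 1 without a filter on low counts and 1.06% of all genes called.

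The balance between the products of the genome was then followed within each library, where scaling cancels. Per kb, mt-Rnr2 exceeded mt-Rnr1 by 2.13, 2.04 and 2.17 times in adipocyte controls and by 1.60, 1.40 and 1.39 times under butyrate, without overlap, while the βOHB libraries spread from 1.60 to 2.80. The ratio of group means on the log2 scale was -0.54 for butyrate against control, with a pooled SD of 0.088. In the other cell types butyrate and control libraries overlapped. The ratio lay between 2.15 and 2.37 in macrophages, between 2.36 and 2.71 in myotubes and between 1.00 and 1.11 in hepatocytes over the treatments, so that hepatocytes held both rRNAs at nearly equal levels per kb.

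mt-Nd1 took 9.89, 9.27 and 9.75% of the per-kb mRNA total in adipocyte controls and 7.66, 7.38 and 7.13% under butyrate, and 9.29, 8.98 and 9.46% in hepatocyte controls and 11.0, 10.8 and 11.6% under butyrate. The βOHB libraries held 8.87 to 9.87% in adipocytes and 8.49 to 9.00% in hepatocytes. In macrophages all 9 libraries lay between 6.74 and 7.00%. The share of mt-Cytb moved the other way in hepatocytes, from 3.87, 3.82 and 3.79% to 2.97, 2.92 and 3.10%. A share of a total can fall when other shares rise, and mt-Cytb itself was not called there under butyrate in either form.

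The light-strand mRNA mt-Nd6 was set against mt-Nd5, which ends at the same place on the other strand. Their ratio per kb was 0.856, 0.893 and 0.817 in adipocyte controls, 0.933, 0.949 and 0.911 under βOHB and 1.05, 1.01 and 1.05 under butyrate, so the 3 groups did not overlap. In hepatocytes the first control library stood apart with 1.49, against 0.961 and 0.947 in the other controls and 0.945 to 0.994 under butyrate. In macrophages and myotubes the treated libraries overlapped the controls.

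**Figure D5:**
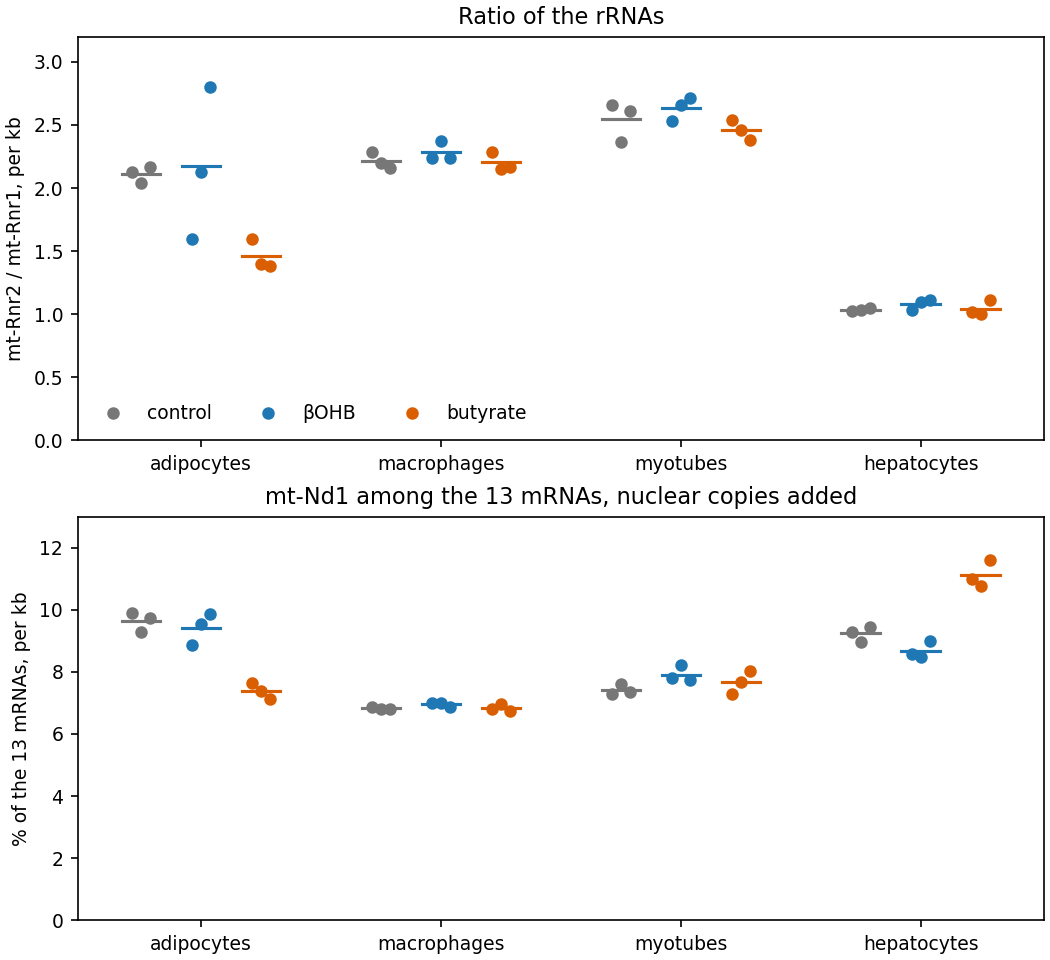
Ratio of mt-Rnr2 to mt-Rnr1 per kb (upper panel) and percentage of the per-kb total of the 13 mRNAs in mt-Nd1 with the nuclear copies added (lower panel), for each library (points) with the group mean (lines). Under butyrate both lay below the controls in adipocytes, and the mt-Nd1 percentage lay above the controls in hepatocytes.

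The nuclear genes that serve the mitochondrial genome were counted from a list of 44 factors of mitochondrial transcription, DNA maintenance, RNA processing and decay and rRNA modification, of which 43 were tested. Under butyrate 5 rose and 22 fell in adipocytes (median log2 fold change -0.26), 7 rose and 20 fell in macrophages (-0.11), 5 rose and 21 fell in myotubes (-0.22) and 13 rose and 17 fell in hepatocytes (-0.090), beside medians of all genes of 0, 0, 0 and -0.0084. Of all tested genes 30.7% were called as raised and 30.3% as lowered in adipocytes, 31.9% and 33.2% in macrophages, 33.1% and 33.4% in myotubes and 31% and 32.4% in hepatocytes, and whether the list differs from them was not tested. Under βOHB edgeR called 0 of the 43 in each cell type, and their medians lay between -0.066 and 0.068.

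Of the core transcription machinery, the transcription and packaging factor Tfam rose in hepatocytes (log2 fold change 0.49, SE 0.079, adjusted p = 2.25e-06) and myotubes (0.20, adjusted p = 0.0231), and gave 0.11 in adipocytes and -0.093 in macrophages. Tfb2m, which opens the promoters, rose in hepatocytes (0.40, SE 0.087, adjusted p = 0.000178) and gave 0.011 to 0.10 elsewhere. The polymerase gene Polrmt fell in myotubes (-0.42, SE 0.064, adjusted p = 1.5e-06) and macrophages (-0.21, adjusted p = 0.00679), and the elongation factor gene Tefm in myotubes (-0.70, SE 0.10, adjusted p = 8.33e-07) and adipocytes (-0.39, adjusted p = 0.00212).

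Among the genes for RNA stability, Lrpprc, which protects mitochondrial mRNAs together with Slirp, rose in hepatocytes (0.39, SE 0.054, adjusted p = 2.31e-07) and myotubes (0.14, adjusted p = 0.0219) and fell in adipocytes (-0.21, adjusted p = 0.00134). Slirp fell in myotubes (-0.28, adjusted p = 0.00916), and Pnpt1, a subunit of the mitochondrial degradosome, was called in none, with values of -0.11 to 0.16. Fastkd2, which binds the large-subunit rRNA and serves ribosome assembly, fell in all 4 cell types, from 25.0-27.3 to 10.5-11.5 TMM-scaled CPM in adipocytes (-1.27, SE 0.084), from 17.6-20.0 to 6.22-6.98 in macrophages (-1.54, SE 0.090), from 18.9-22.3 to 8.63-11.0 in myotubes (-1.08, SE 0.085) and from 43.4-47.5 to 19.6-23.5 in hepatocytes (-1.11, SE 0.079).

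The other factors of largest change under butyrate were Polg2, the accessory subunit of the mitochondrial DNA polymerase (0.89 in adipocytes and 0.64 in hepatocytes), Primpol (0.64 in adipocytes and 0.43 in myotubes) and Rnaseh1 (-0.95 in adipocytes). In macrophages the largest were Mterf2 (0.89), the helicase gene Twnk (0.78) and Mrm3, which methylates the large-subunit rRNA (-1.45). In myotubes they were Pde12 (0.29) and Mgme1, an exonuclease of mitochondrial DNA (-1.56), and in hepatocytes Mterf1b (0.94, SE 0.42, adjusted p = 0.0492), Mrm1 (-1.41) and Nsun4 (-1.23), both of which modify mitochondrial rRNA.

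The nuclear partners of the mitochondrial subunits were counted likewise. Of 77 tested subunits of complexes I, III, IV and V, 2 rose and 27 fell in adipocytes under butyrate (median log2 fold change -0.14), 14 rose and 28 fell in macrophages (-0.080), 2 rose and 48 fell in myotubes (-0.20) and 8 rose and 19 fell in hepatocytes (-0.076), beside the same shares of all genes as above. In adipocytes 12 of the 36 nuclear complex I subunits fell and 1 rose, with a median of -0.16, where 30.3% of all genes fell, beside the 5 of 7 mitochondrial complex I mRNAs that fell there with the copies added. In hepatocytes 2 of the 15 nuclear complex IV subunits fell and 1 rose (median -0.039), where 32.4% of all genes fell and 31% rose, beside the mitochondrial mt-Co1 and mt-Co2, which rose with the copies added.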

How the data were processed

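Total RNA was treated with DNase, sheared, reverse-transcribed with random primers and sequenced on BGISEQ-500 as 150-base pairs. Poly(A) selection, rRNA depletion and strandedness are not given in the sources used here. The authors quantified the reads with Salmon 1.2.1 on GENCODE transcripts and deposited estimated counts per gene, of which 55.6% of the values above 0 were exactly whole as written (no tolerance). The methods describe scaling by average transcript length and library size, but library totals differed and many values were whole, so the table was taken as unscaled. If a length scaling was applied, CPM, values per kb and their comparison between genes would carry it. Salmon divides reads of identical sequence between genes, which bears on the nuclear copies. Genes were named from GENCODE M21 (GRCm38), which named 54094 of 54347, and nuclear copies were found with BLAST+ 2.17.0 (at least 99% identity over at least 90% of the copy).

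The estimated counts were rounded and fitted over all 12 groups in R 4.3.3 by the quasi-likelihood method of edgeR 4.0.16 (sizes scaled by TMM, CPM above 1 in at least 6 libraries, Benjamini-Hochberg adjustment over all tested genes, threshold 0.05), and adjusted p-values are from this fit. There were 15340 tested genes as deposited and 15334 with each copy added to its gene. The 95% intervals used the SE with 24 residual degrees of freedom. CPM is relative to the library total. The test was checked on counts simulated for butyrate minus control in myotubes, with 200 changed genes and 8 false calls. Of the genes changed 1.25, 1.5 and 2 times, it recovered 29.9, 67.2 and 83.3%. Library totals were 18366289 to 23221473. Over the 13627 to 17078 genes compared in each pair of replicates, the spread exceeded counting error (chi-square per degree of freedom 2.607 to 38.09).

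Groups came from the labels. The 13 mRNAs and 2 rRNAs were named throughout, copies where they held counts, and 7 factors of mitochondrial expression always with up to 2 more in each direction in each butyrate comparison. The members and lists were chosen with earlier results of these data known. Alternatives were limma-voom (3.58.1), DESeq2 (1.42.0), other scalings and filters, each cell type alone, a replicate block and leaving out each library.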

Additional observations from a re-analysis of the deposited data

Results flagged for a closer look

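The response to butyrate differed between cell types for 12 pairs of gene and cell type, by the test of each cell type's change against the mean change of the other 3 (edgeR on deposited counts, log2 differences). In adipocytes the differences were -0.4222 for mt-Rnr2, -0.7088 for mt-Nd1, -0.5017 for mt-Nd2, -0.5998 for mt-Atp6 and -1.695 for mt-Nd4l. With the nuclear copies added those of mt-Atp6 (-0.27, adjusted p = 0.126, edgeR) and mt-Nd4l (-0.35, adjusted p = 0.12) were no longer called. That of mt-Rnr2 was lost without the second (-0.36, adjusted p = 0.0749) or the third control (-0.37, adjusted p = 0.0694) or the first (-0.39, adjusted p = 0.0578) or the third butyrate library of adipocytes (-0.36, adjusted p = 0.0799).

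In hepatocytes the differences were 0.5317 for mt-Rnr2, 0.728 for mt-Nd1, 0.4442 for mt-Co1 and 0.5138 for mt-Co2. The last was lost with library totals alone (0.43, adjusted p = 0.0638, edgeR) and without any 1 of 6 libraries (0.40 to 0.53), namely the first or the third control or the second butyrate library of hepatocytes, the third control of macrophages or myotubes or the third butyrate library of adipocytes, but was 0.53 with its copy (adjusted p = 0.000734). In myotubes they were -0.5206 for mt-Rnr1 and -0.3862 for mt-Rnr2, of which the second was lost without the third myotube control library (-0.28, adjusted p = 0.137, edgeR) or the third butyrate library (-0.34, adjusted p = 0.0762). In macrophages mt-Atp6 differed by 0.5453 as deposited and by 0.017 with its copy. These differences share libraries with each other, since each cell type enters the mean of the others.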

How the results depend on the processing

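Of 126 calls over 345 pairs of gene and comparison, 86 were kept under every planned setting, leaving out single libraries included. The replicate numbers did not pair the libraries (correlations of same-numbered libraries -0.264 to 0.273), and a replicate block gave 0 called mitochondrial genes for butyrate minus control in myotubes and 5 for butyrate minus βOHB in hepatocytes. As deposited it also ended the calls of mt-Nd1 (0.291, adjusted p = 0.101, edgeR), mt-Co1 (0.196, adjusted p = 0.278) and mt-Nd4 in adipocytes minus myotubes, mt-Co1 and mt-Co3 in adipocytes minus hepatocytes, mt-Co3 and mt-Nd5 in macrophages minus hepatocytes, mt-Rnr2 and mt-Nd6 in myotubes minus hepatocytes, mt-Nd6 in hepatocytes under butyrate, mt-Co1 in myotubes for butyrate minus βOHB and mt-Co2 in the hepatocyte response. For butyrate minus control, as deposited, the macrophage count was 4 with library totals alone, without a filter and with the libraries of the cell type only. The myotube count was 0 with library totals alone, the libraries of the cell type only or the copies added, and 2 without a filter. For butyrate minus βOHB in macrophages it was 5 with limma-voom and DESeq2, 6 without a filter, 9 with the cell type only and 1 with the copies added. In myotubes it was 5 with limma-voom, 1 with RLE scaling, TMM without mitochondrial genes or the cell type only, 0 with library totals and 7 without a filter. Without a filter βOHB minus control in adipocytes gave 6, and the tests of the butyrate response gave 3 in macrophages, 4 in myotubes and 9 in hepatocytes and that of βOHB in myotubes 1. The macrophage response gave 2 with library totals and 0 with the copies added.

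With the copies added, butyrate minus βOHB in macrophages gave 4 with limma-voom and DESeq2, 2 with library totals and 9 with the cell type only, in myotubes 0 with library totals and 1 with RLE scaling or the cell type only, and the macrophage response gave 1 with library totals. Signs turned for mt-Nd5 in macrophages minus hepatocytes with library totals (0.005 in both forms) and for mt-Co3 with its copy in macrophages under butyrate (0.2237, library totals). Adding the copies turned mt-Atp6 in hepatocytes (0.2164 against control, 0.2632 against βOHB, 0.3806 against the other cell types), mt-Nd3 in adipocytes against the other cell types (-0.6977) and mt-Co3 in macrophages minus hepatocytes (0.1208), since the copy's counts then join the gene's. The log2 ratio of the mRNA share by TMM-scaled size was -0.09841 for butyrate to control and -0.2116 for butyrate to βOHB in macrophages, -0.2719 for butyrate to βOHB in myotubes and 0.1971 for butyrate to control in hepatocytes. It was -0.2236 for butyrate to control in adipocytes, -0.1407 for butyrate and 0.1313 for βOHB to control in myotubes and 0.05603 for butyrate to βOHB in hepatocytes, each over 1.5 times from the value by library totals. The cause of the other changes was not tested.

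Leaving out single libraries gave, as deposited, 0 to 1 calls for butyrate minus control in myotubes, 0 to 5, 1 to 5 and 4 to 7 for butyrate minus βOHB in macrophages, myotubes and hepatocytes, and 1 to 2 and 1 to 3 for the macrophage and myotube response. With the copies added these were 0 to 1, 0 to 4, 0 to 7, 4 to 7, 0 to 1 and 1 to 3, and 5 to 7 for butyrate minus control in adipocytes. For butyrate minus control in macrophages the count as deposited was 2 to 3. The tRNAs were below what these libraries measure, and the split between genes and copies limits mt-Nd3, mt-Nd4l, mt-Co3, mt-Atp6 and mt-Co2.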
